A study of Mus musculus with 6 samples.

Results

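The cells described here were Hox-negative Hand2 cells of the mouse embryo at embryonic day E10.5, a candidate for the distal mandibular crest mesenchyme of the first pharyngeal arch. They were chosen by their own counts of unique molecular identifiers (UMIs, each standing for a captured RNA molecule). A barcode was kept if it had at least 2500 detected genes and at most 10% mitochondrial UMIs. It then needed at least 1 Twist1 UMI, at least 2 Hand2 UMIs and at least 1 UMI over Dlx1, Dlx2, Dlx5 and Dlx6. It had to hold fewer than 3 Epcam UMIs, fewer than 5 Tnnt2 UMIs and no UMI of Hoxa2, Hoxb2, Hoxa3, Hoxb3 or Hoxd3. This left 705 members among 35962 retained cells, out of 53362 barcodes in all. Their share was 1.96% of retained cells, with an exact (Clopper-Pearson) 95% interval of 1.82% to 2.11%.

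The series profiled single cells of wild type C57BL/6 embryos by droplet RNA sequencing (10x Chromium 3′ chemistry, version 3). Microdissected cardiogenic tissue came from 3 samples of vehicle-pretreated normal-glycemic dams and 3 of dams made hyperglycemic with streptozotocin, a toxin of the insulin-producing beta cell, all mated to normal-glycemic males. The labels say that non-cardiac mesoderm, ectoderm and endoderm were captured as well, and they do not state how many embryos were pooled in a sample. The sample descriptions name a chromatin assay, whereas the kit, the titles and the library source are for RNA, and the matrix holds gene UMIs. The matrix joins 6 libraries that differ by a barcode suffix, and no source used here ties a suffix to a sample. The libraries are therefore given by number, 1 to 6, vehicle and streptozotocin were not compared, and no p-value is given. All intervals cover counting error only. Variation between cells, embryos and libraries, and that of PCR, lies outside them.

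Cranial neural crest cells fill the pharyngeal arches and form most of the facial skeleton. Those of the first arch carry no Hox expression, whereas those of the second and more posterior arches do. In the lower part of the first arch, endothelin-1 from the epithelium acts through the receptor Ednra on crest cells and maintains Dlx5 and Dlx6. These in turn support the bHLH factor Hand2 at the distal tip, where the mandibular midline forms. Hand2 and its relative Hand1 are also expressed in the heart, its cushions and the outflow tract, so Hand2 alone does not mark a mandibular cell.

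Members were present in every library, at unequal shares. Library 1 held 93 members (1.44% of its retained cells), library 2 held 59 (0.983%), library 3 held 184 (3.75%), library 4 held 151 (2.66%), library 5 held 142 (1.99%) and library 6 held 76 (1.31%). The interval of library 3, 3.24% to 4.32%, lay above those of the other libraries, and that of library 2, 0.749% to 1.27%, lay at the low end. The Hox-positive Hand2 cells, which met the same rule but had at least 1 UMI of the 5 Hox genes, numbered 3166 (8.80%). How the embryos were dissected for each library is not given in the sources used here, and its part in these shares was not tested. Members had a median of 32137 UMIs and 6227 genes, against 42310.5 UMIs in Hox-positive Hand2 cells. When each cell was thinned at random to 10000 UMIs, 849 of 3125 Hox-positive cells (27.2%) had no UMI of the 5 Hox genes left, so the absence of a Hox UMI depended on depth. A further 29 members had a UMI of another Hox gene.

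**Figure D1:**
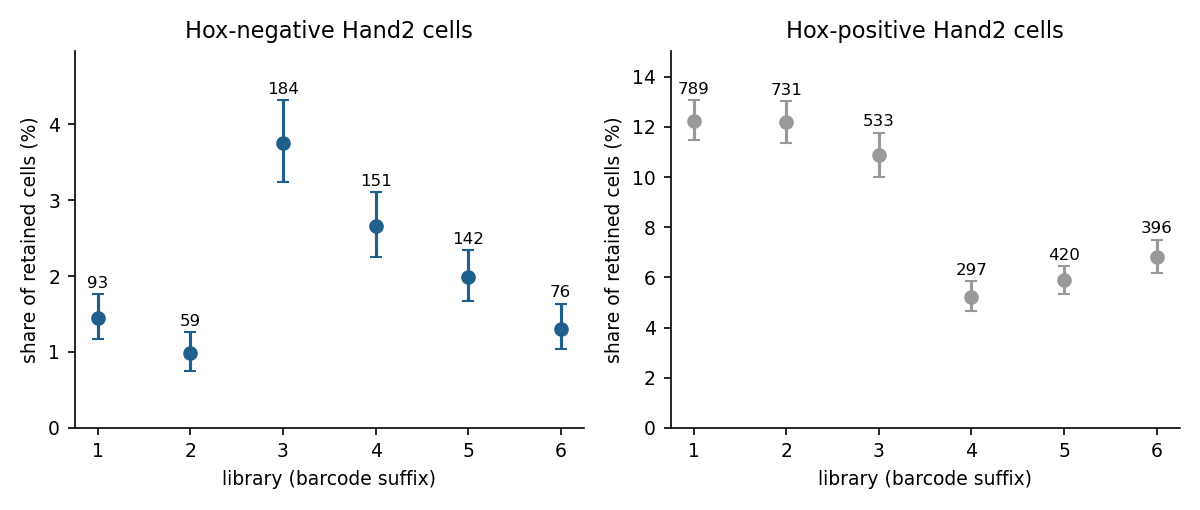
Share of retained cells (%, vertical axis) in each library (horizontal axis) for Hox-negative Hand2 cells (left) and Hox-positive Hand2 cells (right), with exact 95% binomial intervals as bars and the number of cells above each point. Hox-negative Hand2 cells run from 0.983% in library 2 to 3.75% in library 3, and libraries 1 and 2 have the most Hox-positive cells, 789 and 731.

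The second class compared was the Hox-negative Dlx cells without Hand2, which had a Dlx1 or Dlx2 UMI, met the Twist1, Epcam, Tnnt2 and Hox limits and had no Hand2 UMI. There were 154 of them, with 49, 34, 29, 15, 8 and 19 in libraries 1 to 6. Their median of 15806 UMIs was below that of the members, and 101 of them had a Dlx5 or Dlx6 UMI. A cell of low depth can miss Hand2, so this class may hold Hand2-expressing cells. The 108 cells with a single Hand2 UMI, just outside the threshold, had a median of 16365.5 UMIs.

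The label was checked on the markers given with it and on markers outside the rule. Twist1, a bHLH factor of mesenchyme, and Hand2 were used by the rule, and their levels were 327 CPM (a gene's UMIs per 1000000 UMIs of the class) and between 171 and 232 CPM by library. Hand2 had a median of 6 UMIs per member and a highest value of 29. Prrx1, a homeobox gene of craniofacial and limb mesenchyme outside the rule, had at least 1 UMI in 92.5% of members, against 5.45% of endothelial cells (954 cells, median 35452 UMIs) and 8.38% of epithelial cells (5643 cells, median 27229 UMIs) of the same libraries. The whole list of crest mesenchyme identity was less uniform. Of its 14 genes, 11 reached 10 CPM in the members. Prrx2, the paralogue of Prrx1, had a UMI in 97.0% of members but also in 24.9% of endothelial and 61.6% of epithelial cells, and the receptor Pdgfra had one in 73.2%, 6.71% and 4.68%. The AP-2 factors of early crest were low: Tfap2a was found in 14.6% of members against 33.6% of epithelial cells, and Tfap2b in 1.13%, at 0.350 CPM. The reference cells were chosen to lack Twist1 UMIs, which can leave out cells that picked up free RNA of mesenchyme. Their shares describe those cells only and cannot give the level of free RNA. The Dlx part of the rule rested on a single UMI in 170 members, and 89 members had no UMI of Dlx5 or Dlx6.

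A minority of members went against the label. UMIs of Gata4, Gata5, Gata6 and Tbx20, transcription factors of the heart and its cushions, were absent in 508 members, numbered 1 or 2 in 98, and numbered 3 or more in 99. These 99 heart-factor cells were 14.0% of the members (interval 11.6% to 16.8%). The share was 6.09% with each cell thinned to 10000 UMIs and the rule applied again, which also changed the set of members. It was 4.87% once cells with at least 2 UMIs of endothelial, cardiomyocyte or macrophage markers were left out. Just above the limit, 18 of the 99 cells had 3 or 4 heart-factor UMIs, and 66 had 10 or more. Because of them, the set is called Hox-negative Hand2 cells here, and for the listed genes named here, calls that were lost without the heart-factor cells are stated beside the result. The summed endothelial markers Pecam1, Cdh5, Kdr, Tek, Emcn and Cldn5 reached 183 CPM in the heart-factor cells, 36.7 to 415 by library, and 3.86 CPM in the 508 members without heart-factor UMIs, 1.65 to 6.84 by library. Of the 60 members with at least 2 endothelial UMIs, 45 were heart-factor cells. Globin RNA was concentrated in a few cells. The summed erythroid markers were at 6429 CPM in the 508 members, 82.3 to 13656 by library, but at 117 CPM once the 7 of them with over 1000 CPM of hemoglobin genes were left out. They were at 112 CPM in the heart-factor cells, none of which passed that limit. No doublet caller was run. Among members, 35 had a barcode sequence that also occurred in another library, 21 of them in library 4, and no sequence was a member in more than 1 library.

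Hand2 lies at chr8:57320983-57324633 on the plus strand of GRCm38 (mm10), and the antisense transcript Hand2os1 at chr8:57281117-57324233 on the minus strand overlaps it. Promoter sequences are printed for Hand2, which defines the cells, for Gsc, listed with the distal factors, whose level stood apart in library 3, and for Tbx20, which marked a minority of cells described further on. Each is taken from the 250 bases before the RefSeq start (GRCm38.p6) and written 5′ to 3′ on the gene's strand. They lie at chr8:57320733-57320982 (plus strand) for Hand2, chr12:104473331-104473486 (minus strand) for Gsc and chr9:24774304-24774553 (minus strand) for Tbx20. For Gsc the last 94 bases were left out, because they lie within the gene as GENCODE draws it (chr12:104471209-104473330). Capitals mark CANNTG, the E-box core bound by bHLH factors such as Hand2 and Twist1.
Hand2: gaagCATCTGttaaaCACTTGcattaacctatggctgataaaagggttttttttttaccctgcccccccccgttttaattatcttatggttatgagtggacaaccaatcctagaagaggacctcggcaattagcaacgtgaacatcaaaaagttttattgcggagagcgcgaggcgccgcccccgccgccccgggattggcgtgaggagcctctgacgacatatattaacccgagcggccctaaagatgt
Gsc: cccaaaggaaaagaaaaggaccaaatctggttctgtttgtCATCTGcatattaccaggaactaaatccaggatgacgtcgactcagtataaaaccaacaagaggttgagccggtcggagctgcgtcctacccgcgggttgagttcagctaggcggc
Tbx20: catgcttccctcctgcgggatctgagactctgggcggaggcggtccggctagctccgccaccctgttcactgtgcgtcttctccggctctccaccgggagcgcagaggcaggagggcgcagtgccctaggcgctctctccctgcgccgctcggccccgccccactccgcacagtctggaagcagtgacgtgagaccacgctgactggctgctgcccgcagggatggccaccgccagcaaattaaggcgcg
The Hand2 sequence held 2 CANNTG matches, the Gsc sequence 1 and the Tbx20 sequence none. This core, which reads the same way on both strands, occurred in 66.2% of 32851 RefSeq windows of 250 bases, so its presence does not set these genes apart. The version CATCTG, searched with its complement CAGATG and always part of a CANNTG match, was in the Hand2 and Gsc sequences and in 14.4% of all windows. TAATTA, a homeodomain core that reads the same on both strands, was in the Hand2 sequence and in 4.84% of all windows. GATAA or its complement TTATC, the core of GATA factors, had 2 matches in the Hand2 sequence and was in 22.6% of all windows. Of the 15 distal arch factors listed, 7 had a window in the table.

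A gene was called higher or lower in a comparison when the median over libraries of its log2 ratio was at least 1 in size. The ratio was of CPM plus 1, was taken within each library, and needed the same sign in every library with at least 10 cells in both classes. The higher class also needed at least 10 CPM. This is a rule of size and not a test. Against the Hox-negative Dlx cells without Hand2, in the 5 libraries with enough cells (all but library 5), 194 of 8650 genes were called higher in the members, which is 2.24%, and 72 were called lower, 0.832%. Levels below are pooled over all 6 libraries. Where library ranges are said not to overlap, the share of all genes without overlap is not given. Such statements describe single genes only.

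Several distal arch factors were higher in the Hand2 cells. Of 11 listed genes outside the rule that reached 10 CPM, 5 were higher (Hand1, Gsc, Foxf1, Msx2 and Cited1) and 1 was lower (Tlx1). Their median log2 ratio was 1.62, against 0.11 over all 8650 genes. The rule selected the members on Hand2 and the others on its absence, so these ratios describe the cells and test nothing. The classes differed in their Dlx condition as well. All cells without Hand2 had a Dlx1 or Dlx2 UMI, whereas 418 of the 705 members did. The part of this condition in the ratios was not tested.

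Hand1, the bHLH relative of Hand2 in the distal arch and the heart, had levels in the members of 92.1, 76.9, 53.0, 102, 102 and 115 CPM in libraries 1 to 6. The cells without Hand2 had a lowest, median and highest library value of 0, 4.31 and 58.8 CPM. Library 3 was lowest among the members, and in each library the members were above the cells without Hand2, although the ranges overlapped. Pooled, the ratio was 6.20 (95% interval 4.63 to 8.50). It depended on the few comparison cells with heart-factor UMIs. In the 5 libraries used for calls, Hand1 was at 83.9 CPM against 15.1 CPM with all cells (median log2 ratio 3.56). Without heart-factor cells, with 151 comparison cells left, it was at 60.1 CPM against 2.74 CPM (5.17). At least 1 Hand1 UMI was found in 36.5% of members, 1.36% of endothelial and 4.63% of epithelial cells. With each cell thinned to 10000 UMIs, the share was 27.9% in 687 members and 3.15% in 127 cells without Hand2.

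Gsc encodes goosecoid, a homeobox factor needed for lower jaw structures. It stood at 52.0, 39.4, 161, 19.01, 30.9 and 56.2 CPM in libraries 1 to 6, and library 3 was far above the others. The cells without Hand2 ranged from 0 through a median of 15.1 to 29.1 CPM, and the ranges overlapped because of library 4. The pooled ratio was 3.93 (3.02 to 5.21). Gsc UMIs were found in 48.8% of members against 0.31% of endothelial and 0.62% of epithelial cells, and thinning gave 33.9% of members and 10.2% of cells without Hand2.

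Foxf1, a forkhead target of hedgehog signalling, was low in libraries 1 and 2 (21.8 and 29.5 CPM) and between 69.7 and 98.2 CPM in the other libraries. All 6 member values were above the highest value without Hand2, 10.3 CPM. Msx2, a homeobox target of BMP signalling, ran from 40.4 through 64.7 to 105.4 CPM in members, and its highest library value without Hand2 was 24.2 CPM, with no overlap. Cited1, a transcriptional co-regulator, ran from 76.1 through 103 to 207 CPM and was highest in library 3, while the cells without Hand2 ran from 6.53 to 71.0 CPM, again with no overlap.

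The other distal factors were not called, apart from Tlx1. Msx1, the paralogue of Msx2, was at 128 CPM against 63.2 CPM, with a median log2 ratio of 1.67 that did not keep its sign in every library used. Tlx1, a homeobox gene of arch mesenchyme, was lower, at 1.92 CPM in members against 71.5 CPM. That difference depended on which cells stood on the other side: Tlx1 was at 28.1 CPM in the comparison cells with a Dlx5 or Dlx6 UMI and at 134 CPM in those without. Within the 3 libraries with enough of the former cells its median log2 ratio was 1.10, in favour of the members, but without the same sign in each of them. In thinned cells the rule was applied again to the thinned counts, so the cells of both classes changed as well. The ratio of Tlx1 was −0.99 there, below the limit, so Tlx1 was called in neither setting.

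Other calls also depended on the comparison cells. Against only the 101 with a Dlx5 or Dlx6 UMI, in libraries 1 to 3, 551 of 8656 genes were called higher (6.37%) and 74 lower (0.855%). Of 12 distal factors tested in this setting, 6 were called higher and 2 lower, with a median log2 ratio of 1.146 against 0.12 over all genes. Gsc (0.89) and Cited1 (0.41) were no longer called, while Bmp4, a BMP ligand (2.71), Tbx2 (1.73) and Tbx3 (1.19), T-box repressors of the arches, were called higher. Dlx3 and Dlx4 were called lower, at −1.96 and −2.15. Markers of other cell types were higher in the same setting, with 5 of 6 cushion and smooth muscle markers (median 4.72), 4 of 5 erythroid (5.29), 2 of 2 surface ectoderm (2.95) and 2 of 4 second heart field markers (1.51). Their part in the calls of this setting was not tested. The heart-factor cells stayed in this setting. Against all comparison cells and without the heart-factor cells, Bmp4 (−0.33) and Tbx3 (0.82) fell short of the limit, and Tbx2 (1.00) did not keep its sign. Foxf1 kept its call against the comparison cells with a Dlx5 or Dlx6 UMI but not against those without one (2.82, without the same sign in every library).

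**Figure D2:**
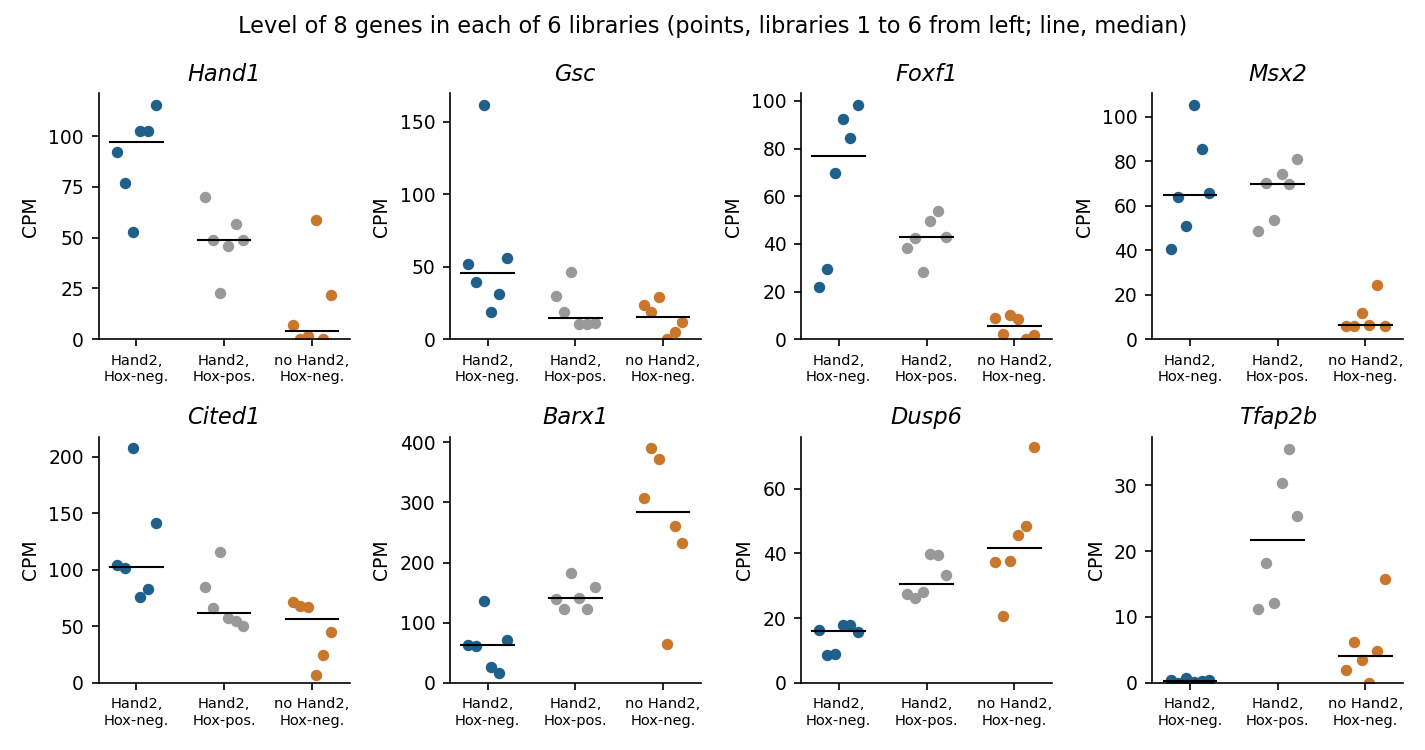
Levels (CPM, vertical axes) of 8 genes in Hox-negative Hand2 cells, Hox-positive Hand2 cells and Hox-negative Dlx cells without Hand2 (horizontal axes), with 1 point per library in the order 1 to 6 from the left and a line at the median. Msx2 and Foxf1 values of the members all lie above those of the cells without Hand2, and library 3 stands apart for Gsc at 161 CPM.

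Genes of the intermediate and proximal arch did not share a direction. Of 13 listed genes that reached 10 CPM, Irx3 was higher, Barx1 and Emx2 were lower, and 10 were not called, with a median log2 ratio of 0.05. Barx1, a homeobox factor of the proximal molar and joint region, was at 63.3, 60.9, 136, 25.5, 16.3 and 71.5 CPM in libraries 1 to 6 of the members. The cells without Hand2 had 65.3, 285 and 390 CPM as lowest, median and highest library. Library 3 had the highest member value and libraries 4 and 5 the lowest, and the ranges overlapped. The pooled level was 4.33 times higher without Hand2 (3.99 to 4.71), and within that class it was 442 CPM in cells with a Dlx5 or Dlx6 UMI and 52.4 CPM in cells without. Emx2, a homeobox factor, was at 1.22 CPM in members and 26.4 CPM in the cells without Hand2. Pou3f3, a dorsal arch factor, was at 0.262 CPM and 16.6 CPM, but it was not called.

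Barx1 also differed with the number of Hand2 UMIs, which the rule used only as a threshold of 2. It was at 225 CPM in the 108 cells with 1 Hand2 UMI, which are outside the rule. In members with 2, 3 to 4, 5 to 9 and 10 or more Hand2 UMIs (80, 170, 291 and 164 cells) it was at 76.3, 87.8, 57.1 and 59.3 CPM, without an order among the members. Msx2 was at 34.3 CPM with 1 Hand2 UMI and at 51.9, 64.3, 67.4 and 88.3 CPM in the members, higher in each class than in the one before. Gsc was at 61.3 CPM and then at 71.0, 64.8, 79.7 and 55.2 CPM. Cells with more Hand2 UMIs were also deeper, with medians of 16365.5, 23927, 26129.5, 32778 and 40593 UMIs, and the part of depth in these levels was not tested.

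Hand2os1, the antisense partner of Hand2, was at 200 CPM in members and 9.21 CPM in the cells without Hand2. Whether the counting used strand is not given in the sources used here. The 3′ ends of the pair, chr8:57324633 for Hand2 and chr8:57281117 for Hand2os1, each lie outside the other gene. The part of reads from their overlap in these levels was not tested. Ndnf, a secreted factor, was at 40.8, 53.5, 61.9, 88.4, 82.9 and 62.2 CPM in libraries 1 to 6, all above the highest value without Hand2 of 5.14 CPM. Creb5, a bZIP factor, was at 76.2 CPM against 10.1 CPM, also with no overlap, as its lowest member library was at 54.5 CPM and its highest library without Hand2 at 24.0 CPM.

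Among the 15 genes with the largest ratios, 4 were not called once the heart-factor cells were left out of both classes. They were Pdlim3, a PDZ and LIM protein of muscle, Tbx20, Phlda2, an imprinted growth regulator, and Igfbp7, a secreted IGF-binding protein. Pdlim3 was at 2.98 CPM in the 606 members without heart factors. The other 11 genes were still called, among them Dkk1, Hand1, Ndnf, Creb5 and Foxf1. All 12 genes with the largest negative ratios were called without them too. In this setting 159 of 8539 genes were called higher (1.86%) and 103 lower (1.21%). Against comparison cells with a Dlx5 or Dlx6 UMI, 4 of the 12, Kazald1, Meox2, Pcp4 and Tlx1, turned to the other sign. Thinning ended the call of 13 of the 27 genes with the largest ratios in either direction, Lhx2, Meox2 and Tlx1 among them.

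The 12 genes with the largest negative ratios included Lhx2, a LIM homeobox factor of branchiomeric muscle precursors (1.62 CPM in members against 34.1 CPM), and Meox2, a paraxial mesoderm homeobox factor. Lhx2 stood at 10.4 CPM in the comparison cells with a Dlx5 or Dlx6 UMI and at 68.1 CPM in those without. Against the former, the median log2 ratio of Lhx2 was −0.54 and that of Meox2 0.22, both below the limit. In cells thinned and then selected again by the rule, the ratios of Lhx2 and Meox2 were −1.69 and −1.14. Neither gene reached 10 CPM or kept its sign in every library there, and neither was called. The summed level of the 7 branchiomeric muscle markers, which include Lhx2, was 8.48 CPM in members, 0.738 to 21.8 by library, and 94.8 CPM in the cells without Hand2, so markers of another lineage moved with these differences. The cells without Hand2 held markers of further lineages. Their erythroid sum was 12470 CPM (82.6 to 87501 by library), against 4618 CPM in members. The endothelial sum was 82.2 CPM (6.86 to 484) against 30.4 CPM. The cushion and smooth muscle sum was 409 CPM (4.84 to 1553) against 541 CPM. The part of all these markers in the result was not tested.

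Signalling genes were examined by pathway, always outside the rule genes. Of 9 endothelin pathway genes that reached 10 CPM, Ece1, the enzyme that activates endothelin, was higher, none was lower, and the median log2 ratio was 0.31. The receptor Ednra was at 19.3, 11.1, 27.2, 30.6, 28.9 and 33.1 CPM in members of libraries 1 to 6, and at 23.3 CPM pooled in the cells without Hand2, so the receptor did not separate the classes. The ligand Edn1 was at 4.72 CPM in members, and most of it was in the heart-factor cells (29.7 CPM, against 0.307 CPM in members with no heart-factor UMI). Ece1 itself was at 85.1 CPM and 18.8 CPM in the same 2 groups. Without the heart-factor cells Ece1 was not called (median log2 ratio 0.66), and Edn1 was called lower (−2.43).

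Of 12 Wnt pathway genes, Rspo2, Dkk1 and Dkk2 were higher and none was lower (median log2 ratio 0.19). Rspo2, a Wnt amplifier, was at 23.2 CPM against 2.76 CPM. The secreted Wnt antagonist Dkk1 was at 53.1, 89.9, 16.9, 68.7, 64.5 and 53.8 CPM in libraries 1 to 6, against 0 to 13.1 CPM, with library 3 lowest and no overlap. Dkk2, another secreted modulator of Wnt signalling, was not called against comparison cells with a Dlx5 or Dlx6 UMI (median log2 ratio 0.67) or with libraries of at least 25 cells in both classes (0.84). Of 15 BMP pathway genes, Id3, Bambi and Msx2 were higher (median 0.68), all of them known as targets that BMP signalling induces. Without the heart-factor cells Id3 fell short of the limit (0.87) and Id1 passed it (1.05). Against comparison cells with a Dlx5 or Dlx6 UMI, 8 of 15 BMP genes were called higher, among them Id2 (1.89) and the inhibitory Smads Smad6 (2.36) and Smad7 (1.87), and the receptor gene Bmpr1b was lower (−1.17). The median there was 1.497. In that setting 3 of 8 endothelin genes were higher and none was lower (median 0.77). Mef2c, a MADS-box factor downstream of endothelin, was at 1.90 and the protease gene Furin at 2.10. The heart-factor cells stayed in that setting. Against all comparison cells and without the heart-factor cells, Mef2c (−0.11), Furin (0.40), Smad6 (0.70) and Smad7 (0.41) fell short of the limit. Bmpr1b (−0.31) fell short there as well, and Id2 did not keep its sign in every library. The part of each change in these losses was not tested. With all cells of both classes, Hhip and Foxf1, both induced by hedgehog signalling, were the 2 higher genes of 11 in that pathway (median 0.48). Of 10 FGF pathway genes, Fgfr2 was higher and Dusp6 lower (median −0.32), and without the heart-factor cells Spry2 and Etv4 were called lower too, at −1.02 and −1.11. Hhip, Fgfr2 and Epha7, an ephrin receptor, were not called against comparison cells with a Dlx5 or Dlx6 UMI, at 1.42 without the same sign in every library, 0.78 and 0.30.

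Igf2, Igf2r and Pdgfc were higher among 12 genes of growth factor signalling, and Igfbp3 and Pdgfa were lower (median 0.53). Igf2, an imprinted growth factor, was between 444 and 809 CPM in the members, highest in library 2, and between 156 and 259 CPM without Hand2. Of 20 guidance and adhesion genes, Epha7, Sema3a, Slit3 and Ncam1 were higher (median 0.51). Igf2r (0.55) and Ncam1 (just under the limit of 1) were not called once the heart-factor cells were left out. Of 8 skeletal genes, the collagen gene Col9a1 was higher (median 0.42), at 297 CPM against 110 CPM. None of 9 glucose transport and glycolysis genes was called in either direction (median −0.30), and Slc2a1, the glucose transporter GLUT1, was at 43.9 CPM against 47.3 CPM. None of 20 S-phase and 20 G2/M genes was called, with medians of 0.02 and 0.06.

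The members were next compared with the Hox-positive Hand2 cells. All 6 libraries entered this comparison, against 5 in the first, and this class was larger and deeper, so the numbers of calls are not like for like. In it, 46 of 8482 genes were called higher in the members, 0.542%, and 33 lower, 0.389%, and both numbers were smaller in thinned cells. Of 11 distal arch factors, Gsc was higher and Tbx2 lower, and the median log2 ratio was −0.10, against 0.04 over all genes. Gsc was at 68.7 CPM against 23.0 CPM (ratio 2.98, 2.81 to 3.17). Library 3, far above the others in Gsc, raised the pooled level of the members. In the Hox-positive libraries Gsc ran from 10.3 through 14.99 to 46.1 CPM, overlapping the members, although the members were higher within every library. Tbx2, a T-box repressor of the arches, ran from 10.8 through 23.0 to 35.8 CPM in the members and from 61.1 through 64.2 to 71.6 CPM in the Hox-positive cells, with no overlap. Hand1 was just short of the limit, with a median log2 ratio of 0.99, and Msx2 was at a median log2 ratio of −0.10. Of 5 cushion and smooth muscle markers tested, 2 were higher in the members (median 0.68), and their part was not tested.

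Genes higher in the members and not overlapping between libraries included Ndnf (69.2 CPM against 17.9 CPM), Plagl1, an imprinted zinc finger factor (119 CPM against 41.8 CPM), and Gata3, a GATA zinc finger factor (45.3 CPM against 18.9 CPM). Pdgfc (182 CPM against 71.3 CPM), Igf2 (589 CPM against 333 CPM) and Col9a1 (297 CPM against 117 CPM) were called higher with no overlap as well. Without the heart-factor cells Igf2 was not called, at 498 CPM against 289 CPM (median log2 ratio 0.95), nor was Gata3, at 34.0 CPM against 12.3 CPM (1.46, without the same sign in every library). Igf1, Igf2 and Pdgfc were the 3 genes called of 10 in growth factor signalling (median 0.23), and none of those 10 was lower. With the heart-factor cells left out, Igfbp5, an IGF-binding protein, was called lower (−1.21).

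Some target genes of FGF signalling were lower in the members. Of 11 genes of the pathway, Etv4, Spry1, Spry2 and Dusp6 were lower and none was higher (median −0.30). Dusp6, a phosphatase that FGF signalling induces, was at 16.4, 8.62, 8.86, 17.9, 17.9 and 15.8 CPM in libraries 1 to 6 of the members, and at 26.1, 30.6 and 39.9 CPM as lowest, median and highest of the Hox-positive cells. Libraries 2 and 3 were lowest, and no values overlapped. The ETS factor Etv4 was at 6.42 CPM against 21.4 CPM, Spry1 at 6.07 CPM against 17.4 CPM, and Spry2 at 8.48 CPM against 20.6 CPM. The ranges of these 3 genes did not overlap between the classes either, but the share of all genes without overlap is not given. These 4 genes kept their calls without the heart-factor cells, and the ETS factors Etv1 and Etv5 were called lower as well (−1.02 and −1.28).

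Tfap2b, an AP-2 factor of neural crest, and Hoxd4 had the largest negative median log2 ratios outside the rule genes, −4.25 and −4.23. Its level was at most 0.656 CPM in any library of the members and 11.1 to 35.6 CPM in the Hox-positive cells, 20.1 CPM pooled. Thinned to 10000 UMIs, 0.437% of members and 9.44% of Hox-positive cells had a Tfap2b UMI. Tfap2a, its relative, was at 5.37 CPM against 14.3 CPM. Of 12 intermediate and proximal arch genes, Irx3 was higher (17.7 CPM against 7.30 CPM) and Barx1 lower (65.2 CPM against 144 CPM). Without the heart-factor cells Barx1 was not called, at 76.1 CPM against 165 CPM (median log2 ratio −0.94), and Foxd1 (1.31) and the Notch ligand Jag1 (1.12) were called higher. Also lower were Crabp1, a retinoic acid binding protein (229 CPM against 534 CPM) and Hey1, a Notch target (9.57 CPM against 20.5 CPM). Hoxb4 and Hoxd4, posterior neighbours of the Hox genes in the rule, were at 0.437 CPM and 0.175 CPM in the members, so absence of the 5 chosen genes came with near absence of these.

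Leaving out the heart-factor cells of both classes, 606 and 2606 cells remained. Of the 15 genes with the largest ratios 8 were still called, Ndnf among them. Pdlim3, Postn, Igfbp7 and Sat1 were not, with median log2 ratios of 0.47, 0.24, −0.27 and 0.82. Plcl1 (1.26), Zfpm1 (1.70) and Gata3 missed only the same sign in every library, and the ratio of Zfpm1, a GATA cofactor, was no smaller than the 1.34 with all cells. Of the 12 with the largest negative ratios 11 were still called, and Hmx1, a homeobox factor, was not, at −1.99 without the same sign in every library. Hand1 was then called higher, at 65.0 CPM against 18.8 CPM. In this setting 50 of 8364 genes were higher in the members (0.598%) and 61 were lower (0.729%). The Hox-positive class had its own cells with 3 or more heart-factor UMIs, 560 in number or 17.7%.

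The 705 cells were not uniform. Apart from globin RNA, the genes with the largest variance relative to their mean in thinned cells included the smooth muscle genes Acta2 and Tagln, the cell cycle inhibitor Cdkn1c and cardiac actin Actc1. The globin genes Hbb-y, Hba-x, Hbb-bs, Hbb-bh1, Hba-a1 and Hba-a2 led, and 9 members had over 1000 CPM of hemoglobin genes. Groups were next formed by UMIs of single genes, so the gene that formed a group is not a finding about it.

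The 99 heart-factor cells were 24, 15, 11, 12, 19 and 18 in libraries 1 to 6. Their share of members was 25.8% in library 1, 25.4% in library 2, 5.98% in library 3, 7.95% in library 4, 13.4% in library 5 and 23.7% in library 6. It was thus low in libraries 3 and 4, which had the most members. Their pooled median of 32603 UMIs was close to the 32068.5 UMIs of the other 606 members, but depth differed within libraries. The medians were 34619.5 against 28088 UMIs in library 1, 32137 against 19073 in library 2 and 33528 against 29588 in library 5. In libraries 3, 4 and 6 the heart-factor cells had the lower median. The part of depth in the calls was not tested. Compared with the 508 members without these UMIs, 831 of 9069 genes were called higher, 9.16%, and 130 lower, 1.43%.

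Among genes outside the grouping and the rule, Acta2, smooth muscle actin, had the largest median ratio and was at 1125 CPM against 5.21 CPM, Tagln, an actin-binding protein of smooth muscle, at 994 CPM against 9.20 CPM, and Postn, the cushion matrix protein periostin, at 100 CPM against 3.56 CPM. Of the cushion and smooth muscle markers outside the grouping genes, 4 reached 10 CPM and all 4 were higher. Of 8 skeletal and matrix genes, Sox9, Sox5, Col1a1, Col1a2 and Col3a1 were higher, and Sox9, a factor of cartilage and of heart cushions, was at 224 CPM against 28.9 CPM. Endothelial genes were higher as well: Cdh5, vascular cadherin, was at 30.6 CPM in these cells, and 12 of the 99 had a Cdh5 UMI, against 93.7% of endothelial reference cells. Summed markers of further lineages were also higher than in the 508 members. The cardiomyocyte sum was 470 CPM (242 to 770 by library) against 38.1 CPM (24.9 to 79.6), and the second heart field sum, which includes grouping genes, was 603 CPM against 32.7 CPM. The surface ectoderm sum was 355 CPM (162 to 497) against 26.1 CPM (5.41 to 51.1), and the neuron sum 185 CPM (43.3 to 290) against 9.63 CPM (7.46 to 11.5). The part of these lineages in the calls was not tested.

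Arch genes did not share a direction in these cells. Of 10 distal factors tested, Hand1, Foxf2 and Bmp4 were higher and Msx1 and Gsc lower (median log2 ratio −0.37, against 0.08 over all genes). Of 13 intermediate and proximal genes, Barx1 and Foxd1 were lower and none was higher (median −0.77). Of 10 crest identity genes, Sox9 and Ets1 were higher and Prrx1 and Msx1 lower (median 0.25). Among the rule genes, Dlx5 was at 16.5 CPM against 67.2 CPM, and Dlx6 at 12.1 CPM against 66.4 CPM. Prrx1 was at 89.5 CPM against 492 CPM, Barx1 at 2.94 CPM against 84.2 CPM and Foxd1, a forkhead factor, at 7.95 CPM against 49.9 CPM. The rule genes Hand2 (198 CPM and 218 CPM) and Twist1 (292 CPM and 339 CPM) were at similar levels in both groups. Hand1 was higher, at 217 CPM against 51.4 CPM, and 72 of the 99 cells had a Hand1 UMI. Across the 687 members deep enough to be thinned, the correlation of Gata4 with Tbx20 was 0.83, that of Gata4 with Pdlim3 0.85 and that of Gata6 with Prrx1 −0.38. These describe cells of shared libraries and are not tests.

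**Figure D3:**
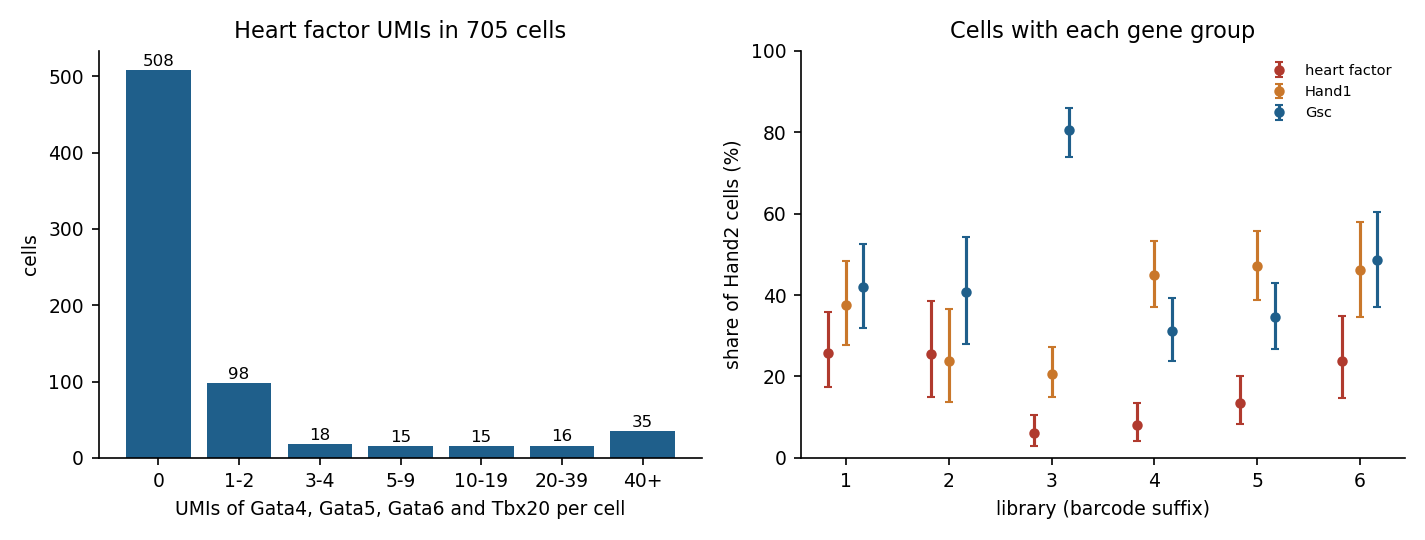
Left, number of members (vertical axis) by UMIs of Gata4, Gata5, Gata6 and Tbx20 per cell (horizontal axis). Right, share of members (%, with exact 95% binomial intervals) in each library that had at least 3 heart-factor UMIs, or at least 1 UMI of Hand1 or Gsc. In total 508 members have no heart-factor UMI, and Gsc reaches 80.4% in library 3.

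A total of 344 members (48.8%) had a Gsc UMI. They made up 148 of 184 members in library 3, 80.4% (interval 74.0% to 85.9%), and between 31.1% and 48.7% in the other libraries. With heart-factor cells left out, 324 Gsc cells were set against 282 cells without, in 6 libraries, and 18 of 8390 genes were called higher, 0.215%, and 13 lower, 0.155%. The higher genes included Nr5a2, a nuclear receptor (38.8 CPM against 1.85 CPM), Foxd1 (71.5 CPM against 18.3 CPM), Cxcl12, a chemokine (97.2 CPM against 25.8 CPM), and the first arch homeobox gene Pitx1 (13.5 CPM against 0.925 CPM). For Pitx1 the median log2 ratio within libraries was 1.14, much below the pooled ratio, and for Nr5a2, Foxd1 and Cxcl12 it was 3.30, 1.94 and 1.29. The lower genes included Tbx2 (8.85 CPM against 47.5 CPM), Hand1 (26.1 CPM against 114 CPM), Irx3 (7.56 CPM against 34.0 CPM) and Tbx3, a T-box repressor (13.2 CPM against 44.9 CPM). Of 10 other distal factors tested, 1 was higher and 3 were lower in the Gsc cells (median log2 ratio −0.63, against 0.01 over all genes). Of 14 intermediate and proximal genes, 3 were higher and 2 lower (median 0.50). Of the 44 members with a Pitx1 UMI, 36 also had a Gsc UMI and 32 were in library 3.

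Hand1 UMIs were found in 257 members, with 35, 14, 38, 68, 67 and 35 in libraries 1 to 6. Outside the heart-factor cells, 185 of 606 had them, and 84 of 8459 genes were called higher than in cells without Hand1, 0.993%, and 15 lower, 0.177%, over the 5 libraries other than library 2. The keratin genes Krt8 and Krt18, intermediate filaments best known from simple epithelia, were higher, and Krt18 was at 67.4 CPM against 12.5 CPM. The LIM homeobox gene Isl1, known from the heart field and the distal mandible, was at 70.0 CPM against 17.2 CPM, and Rgs5, a G protein regulator of mural cells, at 114 CPM against 36.5 CPM. Barx1 was lower, at 10.9 CPM against 108 CPM, as were Foxd1 (16.2 CPM against 63.2 CPM), Nr5a2 and Dlx3. The rule itself allowed fewer than 3 Epcam UMIs per cell, and the part of epithelial RNA in the keratin levels was not tested. Of the markers of other cell types tested here, 2 of 2 surface ectoderm (the keratins), 1 of 1 neuron (Isl2, median log2 ratio 2.30), 1 of 1 endoderm (Sox2, 1.40), 1 of 2 second heart field and 1 of 2 cushion and smooth muscle markers were higher as well, and their part was not tested either.

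The groups overlapped. Of the 257 Hand1 cells, 78 (30.4%) had Gsc and 72 (28.0%) were heart-factor cells, and 20 of the 99 heart-factor cells (20.2%) had Gsc. Lhx8, a LIM homeobox gene of the oral arch, had UMIs in 58 members, of which 20 had Gsc and 12 had Hand1. The correlation of Hand1 with Gsc across the 687 thinned members was −0.19. No UMI of Hand1 or Gsc and fewer than 3 heart-factor UMIs were found in 157 members (22.3%). Because library 3 supplied many of the Gsc cells, pooled levels weight the libraries unequally, whereas the calls above were taken within libraries.

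**Figure D4:**
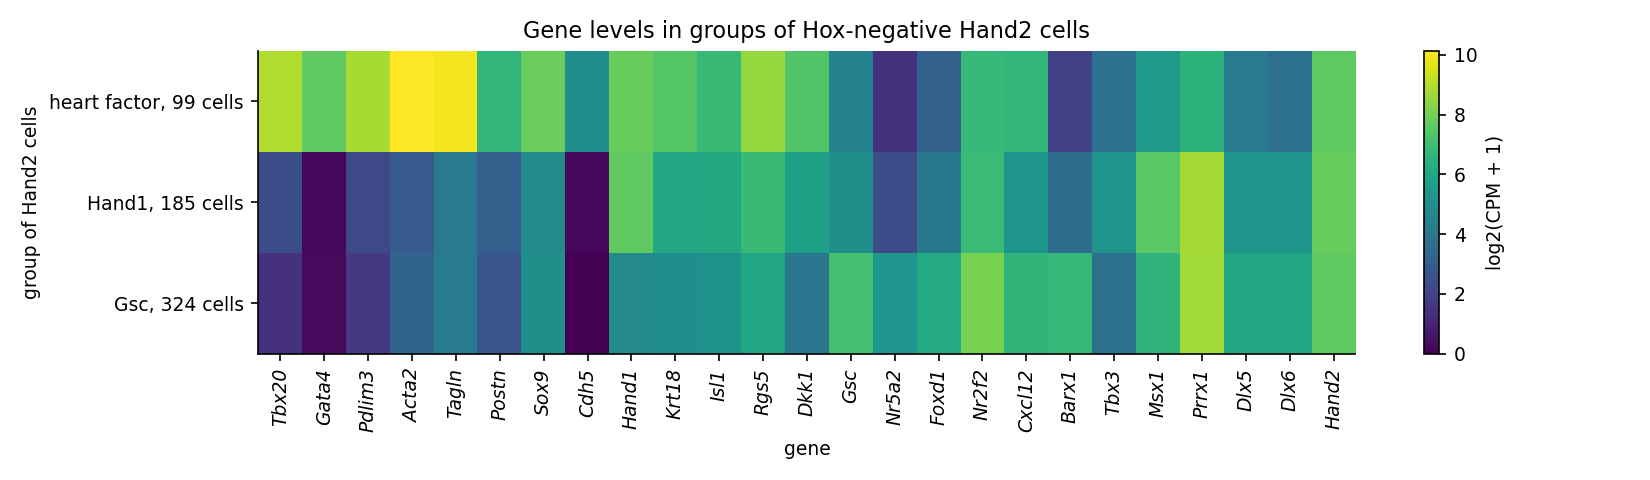
Pooled level of 25 genes (horizontal axis) in 3 groups of members (vertical axis), coloured by log2 of CPM plus 1. Outside the genes that formed the groups or the rule, the 99 heart-factor cells are high in Pdlim3, Acta2 and Tagln and low in Barx1, and the Hand1 and Gsc groups leave out heart-factor cells, can share cells, and are alike in Hand2.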

How the data were processed

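The authors' deposited matrix holds raw UMI counts for 32285 genes in 53362 barcodes of 6 libraries, and every value was a whole number. Per the submitters' processing notes, CASAVA 1.8, Cell Ranger 5.0.0, Seurat 4 and the mm10 build were used. Other upstream settings were not stated there. Per the labels, the 6 samples were 3 vehicle and 3 streptozotocin, but no barcode suffix is tied to a sample, so the matrix was treated as 1 pooled sample, described by library, with no test.

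Counts were summed per library and cell class with Python 3.11.15, numpy 2.4.6, pandas 2.3.3 and scipy 1.17.1, and figures were drawn with matplotlib 3.10.9. CPM is a gene's UMIs per 1000000 UMIs of the class. Levels carry exact Poisson 95% intervals, shares exact binomial ones, and a count of 0 allows up to 3 counts. Ratios used CPM plus 1 within libraries. A planned minimum of 50 cells per class and library was met by 0 libraries in the comparison with cells without Hand2, so 10 cells were used, chosen after cell numbers were seen. The calling step was tested on simulated counts that held Poisson error only, with no variation between cells or libraries. That test therefore cannot show how often genes are falsely called in mixed classes. Retained cells had 2500 genes and at most 10% mitochondrial UMIs, and cells were thinned to 10000 UMIs to compare depths.

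Named genes were the 15 largest and 12 smallest median ratios among called genes, plus members of the lists. Some genes are not reported here and were taken out of the lists after the values were seen. The sex-linked, ribosomal and mitochondrial genes were left out of naming. The members and lists were chosen with earlier results of these data known. Doublets were not called. Instead, cells above the 95th percentile of UMIs, cells with at least 2 UMIs of endothelial, cardiomyocyte or macrophage markers, and shared barcodes were left out as alternatives. Sequences are from RefSeq (GRCm38.p6) and gene positions from GENCODE.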

Additional observations from a re-analysis of the deposited data

How the results depend on the processing

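No paired analysis was possible because no barcode suffix is tied to a sample, so replicate numbers could not be matched to libraries. The member share of 1.96% was 2.26% with a Hand2 minimum of 1 UMI, 1.74% with 3 UMIs, 1.65% in thinned cells, 3.06% without cells holding endothelial, cardiomyocyte or macrophage UMIs, and 1.68% (without library 3) to 2.16% (without library 2) with each library left out in turn. The 194 genes higher than in cells without Hand2 became 116 at a minimum of 25 CPM, 463 at a fold of 1.5, 378 without the cells holding other markers, 321 with libraries of 25 cells, 551 against only comparison cells with a Dlx5 or Dlx6 UMI and 588 against only those without. The 72 lower genes became 29, 129, 110 and 287 at 25 CPM, a fold of 1.5, libraries of 25 cells and against cells without a Dlx5 or Dlx6 UMI. Leaving out each library gave 182 to 280 higher and 71 to 107 lower. Against Hox-positive cells, the 46 higher genes became 24 in thinned cells, 29 at 25 CPM, 147 at a fold of 1.5, 27 with a pseudocount of 5 CPM, and 42 to 65 with each library left out. The 33 lower genes became 15, 13 and 96 under the first 3 of these settings, 53 without the cells holding other markers, 61 without heart-factor cells, and 34 to 46 with each library left out. The 14.0% of heart-factor members became 6.09% in thinned cells, 4.87% without cells holding other markers, and 12.3% to 16.9% with each library left out. Of the 27 named genes, 4 reversed against comparison cells with a Dlx5 or Dlx6 UMI, at median log2 ratios of 0.58 for Kazald1, 0.22 for Meox2, 0.73 for Pcp4 and 1.10 for Tlx1. In the thinned settings of this section the rule was applied again to the thinned counts, so the cells of each class changed together with depth. Thinning and leaving out cells with other markers each ended the call of 13 of the 27. Of these, 10 and 8 kept a median log2 ratio of at least 1 in size and lost the call by sign or by the minimum of 10 CPM. A minimum of 25 CPM ended 10 calls, comparison cells with a Dlx5 or Dlx6 UMI 7 beside those that reversed, leaving out shared barcodes 4 (Tbx20 among them), leaving out heart-factor cells 4, comparison cells without a Dlx5 or Dlx6 UMI 3 and libraries of 25 cells 1. In that order, 10, 3, 4, 2, 3 and 0 of these genes kept a median log2 ratio of at least 1 in size. These alternatives use fewer or other cells, fewer UMIs or other limits, and beyond that the cause was not tested. The settings with libraries of 25 cells and without heart-factor cells were chosen after seeing the data.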
